A study of Mus musculus with 4 samples.

Results

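Lhx6 and Lhx8 are close relatives in the LIM homeobox family of transcription factors, and both are genes of the medial ganglionic eminence (MGE), the ventral part of the embryonic telencephalon that produces many cortical interneurons. They were taken at their positions in the mm10 RefSeq gene table: Lhx6 at chr2:36081950-36105992 (24043 bp) and Lhx8 at chr3:154306288-154330560 (24273 bp), which makes 2 of 49943 annotated genes on chromosomes 1 to 19, X and Y. All CTCF peaks from 500 kb below to 500 kb above each gene were collected from the deposited lists, where below means towards lower coordinates. This gave 27 of 25625 peaks of the MGE list and 29 of 31886 peaks of the telencephalon list.

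The peaks come from chromatin immunoprecipitation and sequencing (ChIP-seq) of mouse tissue at embryonic day 13.5, with 1 CTCF library from MGE and 1 from telencephalon. Each tissue also had 1 input library without antibody, which was not analysed here. The labels give no genotype or strain. They describe dissection of MGE for every sample, give no statement on MGE being part of the telencephalon sample, and name different library kits for the tissues, so tissue and kit cannot be told apart. The header of the telencephalon file carries the name e14, although the label gives the same age as for MGE.

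CTCF binds DNA through its zinc fingers and, together with cohesin, marks many anchors of chromatin loops and borders of chromatin domains. Lhx6 acts downstream of Nkx2-1 and is required for the migration and specification of MGE-derived interneurons. Lhx8, also called Lhx7, is required for cholinergic neurons of the basal forebrain. LIM homeobox proteins bind DNA through a homeodomain and bind the cofactor Ldb1 through their LIM domains.

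The loci differed at the gene itself. Lhx8 held a CTCF peak within its body in both lists, whereas no peak lay in Lhx6 or within 20 kb of it in either list. Among 21887 protein-coding genes, 24.3% held a shared peak in the gene in both lists, and 22.8% had no peak inside them or within 20 kb in both lists, so neither state was rare. In the lists taken singly, 36.7% of genes had none within 20 kb in MGE and 28.9% in telencephalon, and among 7853 genes within 2-fold of Lhx6 in length 19.1% had none in both. Here and below, peaks are called shared where the peak intervals of both lists have 1 bp or more in common. Neither tissue had a replicate, so tissues were not tested against each other and the values describe these libraries.

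RefSeq promoter sequences (GRCm38.p6, the coordinates of mm10; 250 bases before to 50 bases after an annotated start) are shown for each member and for Cryz, whose promoter in the Lhx8 neighbourhood carried a peak in both lists. They were searched on both strands for a core of the CTCF motif, which reads CCA, any 2 bases, AG, any 2 bases and GGC. It was the only motif searched, and capitals mark a match. They read 5′ to 3′ on the strand of the gene.
Cryz, chr3:154596461-154596760, plus strand: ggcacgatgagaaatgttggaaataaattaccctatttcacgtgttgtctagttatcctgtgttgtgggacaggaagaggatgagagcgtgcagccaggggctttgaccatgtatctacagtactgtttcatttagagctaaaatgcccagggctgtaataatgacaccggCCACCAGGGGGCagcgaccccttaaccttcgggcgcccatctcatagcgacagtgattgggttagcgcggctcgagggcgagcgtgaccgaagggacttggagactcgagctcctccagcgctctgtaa
Lhx8, chr3:154330511-154330810, minus strand: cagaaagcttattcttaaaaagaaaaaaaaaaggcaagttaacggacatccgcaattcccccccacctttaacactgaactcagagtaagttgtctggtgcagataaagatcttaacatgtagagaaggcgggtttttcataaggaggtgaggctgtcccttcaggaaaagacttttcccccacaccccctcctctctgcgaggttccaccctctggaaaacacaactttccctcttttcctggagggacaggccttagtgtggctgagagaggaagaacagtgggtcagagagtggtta
Lhx6, outermost listed start, chr2:36105359-36105658, minus strand: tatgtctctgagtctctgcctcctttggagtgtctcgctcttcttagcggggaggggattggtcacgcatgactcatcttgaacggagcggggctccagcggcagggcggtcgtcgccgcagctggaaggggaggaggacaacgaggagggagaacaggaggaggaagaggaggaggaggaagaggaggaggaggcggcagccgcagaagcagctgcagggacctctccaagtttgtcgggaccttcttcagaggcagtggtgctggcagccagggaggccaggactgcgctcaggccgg

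The Cryz match CCACCAGGGGGC lay at chr3:154596632-154596643, inside the peaks of both lists, 36 bp from the midpoint of the MGE peak and 7.5 bp from that of the telencephalon peak. Cryz encodes zeta-crystallin, a quinone reductase. No match was found in the Lhx8 promoter or in any of the 3 Lhx6 promoters in the table, and none of these overlapped a peak. The table held 43 promoter windows for 34 genes of the neighbourhoods, and the Cryz promoter was the only 1 with a match. Of 1101 promoters that overlapped peaks of both lists 17.9% held the motif, against 1.70% of 30573 that overlapped none and 2.43% of all 32851 on these chromosomes. The bases under the peaks away from promoters were not examined.

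Lhx6 lay in a stretch without CTCF peaks in both lists. In the MGE list the stretch ran for 180800 bp, from the end of a peak at chr2:36008049-36008526 to the start of a peak at chr2:36189327-36189570. In the telencephalon list it ran for 168645 bp, from a peak at chr2:36045218-36045433 to a peak at chr2:36214079-36214433. The stretches are offset: the MGE stretch reaches further below the gene and the telencephalon stretch further above it. A stretch of at least this length around the gene was found for 27.9% of 21719 protein-coding genes in the MGE list and for 23.3% of 21721 in the telencephalon list; genes holding a peak count as 0 bp.

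Between the limiting peaks of the MGE list lay the whole of Ndufa8, a subunit gene of respiratory complex I, Morn5, Lhx6 and Rbm18, which encodes an RNA-binding motif protein, together with the long noncoding RNA gene Gm39798. Between those of the telencephalon list lay Morn5, Lhx6, Rbm18, Mrrf, encoding the mitochondrial ribosome recycling factor, and the noncoding Gm46735. Morn5 lay 2240 bp below Lhx6 and Rbm18 lay 10086 bp above it, and both fall between Lhx6 and its limiting peaks in each list.

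The nearest peak was 73423 bp below Lhx6 in the MGE list and 36516 bp below it in the telencephalon list, counted as bases between gene and peak. The distance was longer than that of 86.4% of protein-coding genes in the MGE list (median 9086 bp) and of 79.1% in the telencephalon list (median 3423 bp). The nearest telencephalon peak was 216 bp wide, overlapped Ndufa8 and had no MGE partner. Among peaks at least as wide as their list's median, the nearest was 73423 bp away in the MGE list and 73268 bp away in the telencephalon list, and these are the same shared site. That site, chr2:36008049-36008526 in MGE and chr2:36008128-36008681 in telencephalon, held the widest peak of the Lhx6 neighbourhood in each list. Its widths of 478 bp in MGE and 554 bp in telencephalon exceeded those of 93.1% and 93.4% of their lists.

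Above Lhx6, towards its promoter side, the nearest MGE peak lay inside Mrrf, was 244 bp wide and had no partner in the telencephalon list. The next peak upward was shared, at chr2:36214010-36214369 in MGE and chr2:36214079-36214433 in telencephalon, 2372 and 2308 bp below Ptgs1, the gene of cyclooxygenase-1. Shared peaks therefore bracketed a segment of 205483 bp by the MGE coordinates and 205397 bp by those of telencephalon. It held the 5 protein-coding genes Ndufa8, Morn5, Lhx6, Rbm18 and Mrrf and the noncoding Gm39798 and Gm46735. Within this bracket the MGE list had 1 peak, the one in Mrrf, and the telencephalon list had 3, all below Lhx6. Lhx6 is transcribed towards lower coordinates, so the wide shared site lies beyond its far end and the site near Ptgs1 lies upstream of its start.

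**Figure D1:**
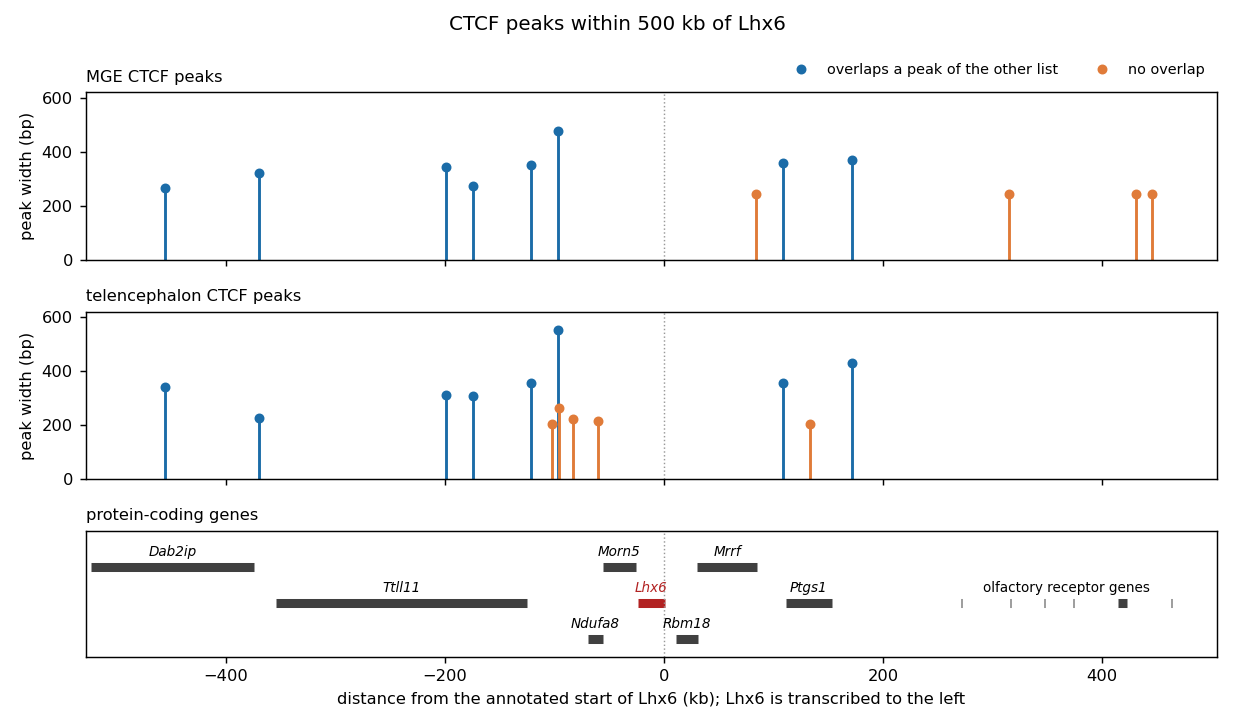
CTCF peaks within 500 kb of Lhx6 in the MGE list (top) and the telencephalon list (middle), with peak width in bp against distance from the outermost annotated start of Lhx6 in kb; protein-coding genes are drawn below. Blue peaks overlap a peak of the other list (8 in each) and orange ones do not (4 in MGE, 5 in telencephalon); the space around Lhx6 holds no peak in either list.

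Within 500 kb of Lhx6 there were 12 peaks in the MGE list and 13 in the telencephalon list. Of these, 8 of 12 MGE peaks were shared (66.7%, exact 95% Clopper-Pearson interval 34.9 to 90.1%) and 8 of 13 telencephalon peaks (61.5%, 31.6 to 86.1%). The whole lists had 58.4% and 47.0%, and both lie within these intervals, which cover counting error only. The partners were closely placed, with midpoints 3 to 117 bp apart (median 57.5 bp).

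Below Lhx6, 6 of the 8 shared sites were found. They lay inside Dab2ip, a Ras GTPase-activating protein gene (chr2:35649797-35650061 in MGE), 3979 bp above it (chr2:35734974-35735295), at 2 places inside Ttll11, a tubulin polyglutamylase gene (chr2:35906475-35906818 and chr2:35930581-35930852), 4047 bp above Ttll11 (chr2:35983868-35984218), and at the wide site described above. These shared MGE peaks were 265, 322, 344, 272, 351 and 478 bp wide, against 342, 227, 312, 308, 356 and 554 bp for their telencephalon partners. All 6 MGE peaks below Lhx6 were shared, and the telencephalon list added 4 unshared ones of 205, 264, 224 and 216 bp, at 78457, 72275, 60004 and 36516 bp from the gene. These 4 lay around and above the wide shared site, and the peak at chr2:36009411-36009674 was 884 bp from its MGE member.

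Above Lhx6 the lists parted at the olfactory receptor genes. Both shared sites on this side flanked Ptgs1, the upper of them at chr2:36276577-36276947 in MGE and chr2:36276630-36277059 in telencephalon, 371 and 430 bp wide. Beyond it the MGE list had 3 peaks of 244 bp among olfactory receptor genes and pseudogenes (chr2:36420113-36420356, chr2:36536614-36536857 and chr2:36550837-36551080), and the telencephalon list had none up to the limit of the window. Between the shared sites at Ptgs1, the telencephalon list had 1 unshared peak of 203 bp inside the gene. All 4 unshared MGE peaks near Lhx6 were 244 bp wide, the narrowest width in that list, which 56.2% of its 10649 unshared peaks and 9.44% of its 14976 shared peaks had.

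Lhx8 held a shared peak at chr3:154317906-154318233 in the MGE list (328 bp) and at chr3:154317917-154318154 in the telencephalon list (238 bp). The telencephalon peak lay wholly inside the MGE peak, and their midpoints were 34 bp apart. The site is near the middle of the annotated gene, 11.6 kb from its lower end in both lists, and 12.3 kb from its upper end, where transcription starts, in MGE and 12.4 kb in telencephalon. Exons and introns are not given in the table used. Of protein-coding genes, 31.4% had a peak in the gene in the MGE list and 39.1% in the telencephalon list, and of 7843 genes within 2-fold of Lhx8 in length 24.6% held a shared peak in both lists. The telencephalon peak was narrower than its list's median of 276 bp, so among peaks at least that wide the nearest to Lhx8 in that list was 36229 bp away.

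The peak inside Lhx8 was the third of 4 consecutive shared sites at nearly even spacing. The first lay inside Slc44a5, a choline transporter-like gene (chr3:154226422-154226698 in MGE and chr3:154226383-154226913 in telencephalon). The next lay near the upper end of the same gene (chr3:154269734-154270094 and chr3:154269735-154270058), 36193 and 36229 bp below Lhx8. The last lay in intergenic DNA above Lhx8 (chr3:154364930-154365241 and chr3:154364924-154365176), 34369 and 34363 bp from it. Neighbouring midpoints were 43.4 to 48.2 kb apart in the MGE list and 43.2 to 48.1 kb apart in the telencephalon list. In each list these were all 4 peaks within 100 kb of Lhx8. Over the whole lists the shared share was 58.4% for MGE and 47.0% for telencephalon. The run was marked out after the peaks were seen. How many other genes have such a run or spacing was not counted.

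The run covered 138.82 kb in MGE and 138.794 kb in telencephalon. No unshared peak of either list lay in it, which is part of how it was drawn. Peak widths in the run were 277, 361, 328 and 312 bp in MGE and 531, 324, 238 and 253 bp in telencephalon. The order of widths thus differed between lists. The only annotated gene lying wholly between the peak in Lhx8 and the peak above it is the noncoding AI606473, which starts 260 bp above Lhx8. No whole gene lies between the peak in Lhx8 and the peak below it.

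**Figure D2:**
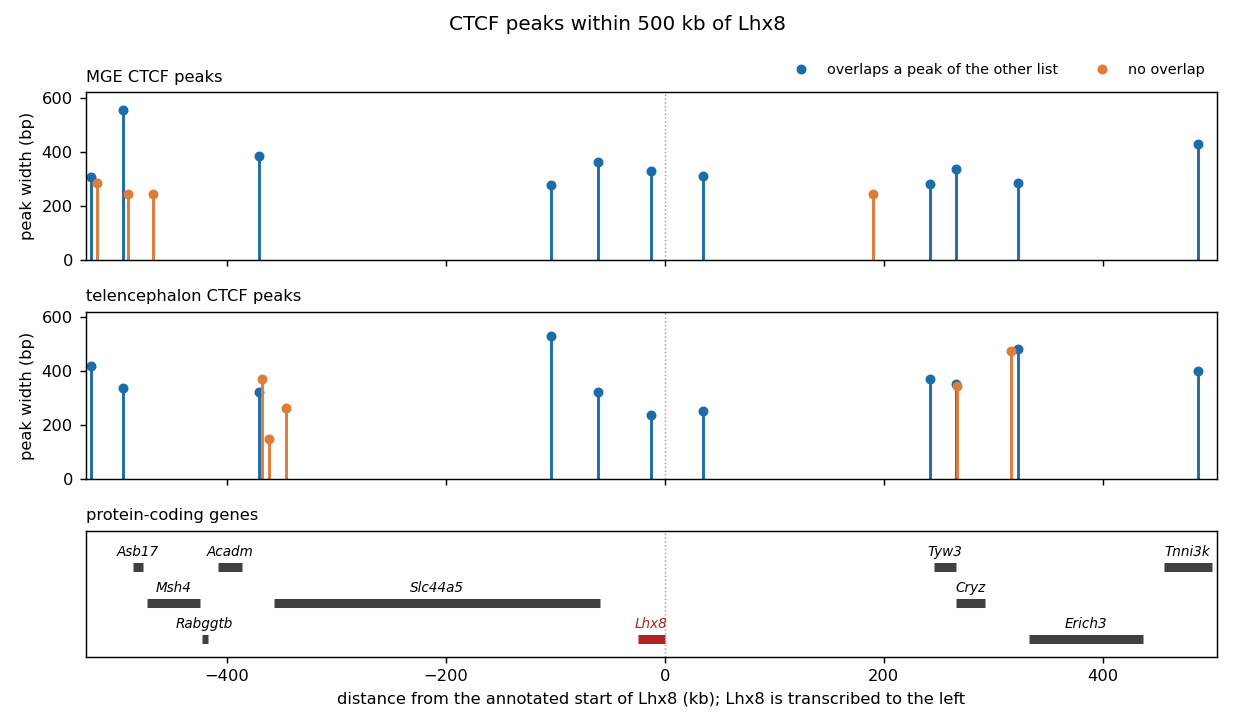
CTCF peaks within 500 kb of Lhx8 in the MGE list (top) and the telencephalon list (middle), with peak width in bp against distance from the annotated start of Lhx8 in kb; protein-coding genes are drawn below. Blue peaks overlap a peak of the other list (11 in each) and orange ones do not (4 in MGE, 5 in telencephalon); 4 shared sites run across Slc44a5 and Lhx8 with long intervals on either side.

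Long intervals without peaks flanked the run. Below it, 266613 bp within and beside Slc44a5 held no MGE peak and 241661 bp held no telencephalon peak. Above it, 155079 bp held no MGE peak and 207164 bp no telencephalon peak. The MGE interval ended at a peak of 244 bp at chr3:154520321-154520564 that had no partner, and without it the interval would end at the shared site at chr3:154572390-154572671, which also ends the telencephalon interval. No protein-coding gene lies wholly within these intervals, in contrast to the stretch around Lhx6. The lengths of these intervals were not set against those beside other genes.

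Within 500 kb of Lhx8 there were 15 peaks in the MGE list and 16 in the telencephalon list. Shared peaks made up 11 of 15 MGE peaks (73.3%, exact 95% interval 44.9 to 92.2%) and 11 of 16 telencephalon peaks (68.8%, 41.3 to 89.0%). The interval of the MGE list holds its whole-list share of 58.4%, and that of the telencephalon list holds its 47.0%. Partners had midpoints 5 to 92.5 bp apart (median 28.5 bp). Within 250 kb, all 5 telencephalon peaks were shared (100%, interval 47.8 to 100%), as were 5 of 6 MGE peaks (83.3%, 35.9 to 99.6%). Sharing was also recounted after both lists were cut to peaks at least as wide as their median, so narrower partners no longer counted. By this stricter count, 6 of 12 telencephalon peaks within 500 kb were shared (50%, 21.1 to 78.9%). For MGE these were 6 of 8 peaks (75%, 34.9 to 96.8%). The 328 bp MGE peak inside Lhx8, for instance, lost its 238 bp telencephalon partner. These shares are therefore not on the same definition as those above.

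Above the run, a shared site lay 3848 bp below Tyw3 in MGE and 3809 bp below it in telencephalon. Others lay at the overlapping ends of Tyw3 and Cryz, between Cryz and Erich3 (chr3:154653038-154653321 in MGE), and inside Tnni3k, a cardiac kinase gene (chr3:154817740-154818169). Tyw3, an enzyme of wybutosine synthesis in transfer RNA, and Cryz lie on opposite strands, and the annotated genes overlap where they start. Their shared peak (chr3:154596506-154596841 in MGE and chr3:154596469-154596821 in telencephalon) is the one over the printed Cryz promoter. The telencephalon list had another peak 126 bp above the MGE peak, at chr3:154596968-154597312 (345 bp), which overlapped the listed promoters of Tyw3 and of the upper Cryz start. Those promoters held no match to the motif. A further unshared telencephalon peak of 473 bp at chr3:154646573-154647045 lay 5992 bp from the nearest MGE peak.

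Below the run, shared sites lay at chr3:153806457-153806764, chr3:153835619-153836172 and chr3:153959425-153959808 in MGE. The middle one was 554 bp wide in MGE, wider than 97.1% of that list, and 337 bp wide in telencephalon. Unshared MGE peaks lay at 494659, 465735 and 442805 bp from Lhx8 (285, 244 and 244 bp wide), the last inside Msh4, a meiotic recombination gene. Unshared telencephalon peaks lay at 343816, 337431 and 321566 bp (370, 150 and 262 bp wide), the last inside Slc44a5. By definition unshared peaks of the lists do not coincide. Here the MGE ones lay around Asb17 and Msh4 and the telencephalon ones at the lower end of Slc44a5. Across Rabggtb and Acadm, an acyl-CoA dehydrogenase gene of fatty acid oxidation, neither list had a peak.

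The lower limit around Lhx8 fell right beside a shared peak, so the counts there rest on where the limit was set. The outermost peaks counted below Lhx8 lay 499523 bp from it in MGE and 499496 bp in telencephalon, and the next beyond the limit lay 630920 and 549446 bp away. Below Lhx6 the outermost counted were 431888 bp and 431907 bp away, and the next 536938 and 537031 bp away. Above Lhx6 the outermost MGE peak lay 444844 bp and the outermost telencephalon peak 170637 bp from the gene, and the next were at 591270 and 632526 bp. Above Lhx8 they lay at 487179 and 487102 bp, and the next at 547219 and 566244 bp.

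Both neighbourhoods held ordinary numbers of peaks for their lists, with the telencephalon counts on the low side. The median protein-coding gene had 13 peaks within 500 kb in the MGE list (interquartile range 9 to 18) and 19 in the telencephalon list (11 to 30). Lhx6, at 12 and 13, had more than 41.0% of genes in MGE and more than 29.0% in telencephalon. Lhx8, at 15 and 16, had more than 58.5% in MGE and more than 38.6% in telencephalon. Of genes with a peak in the window, 35.9% had a lower shared share than Lhx6 in the MGE list and 85.3% in the telencephalon list, and for Lhx8 these were 47.4% and 94.3%. Neighbouring genes have the same peaks, so these shares describe positions and are not a test.

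By medians, peak width followed sharing at Lhx6 and less clearly at Lhx8. Shared peaks near Lhx6 had a median of 347.5 bp in MGE and 348.5 bp in telencephalon, close to the whole-list medians of 345 and 346 bp. Unshared ones had medians of 244 bp in MGE and 216 bp in telencephalon, against 244 and 223 bp for the whole lists. In telencephalon, unshared widths near Lhx6 (203 to 264 bp) overlapped shared ones (227 to 554 bp). Near Lhx8 the shared medians were 328 bp in MGE and 353 bp in telencephalon. Unshared peaks there had a median of 244 bp in MGE and of 345 bp in telencephalon. The unshared telencephalon peaks ranged from 150 to 473 bp, so they overlapped the widths of shared peaks (238 to 531 bp). In MGE, unshared widths near Lhx8 (244 to 285 bp) overlapped shared ones (277 to 554 bp).

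**Figure D3:**
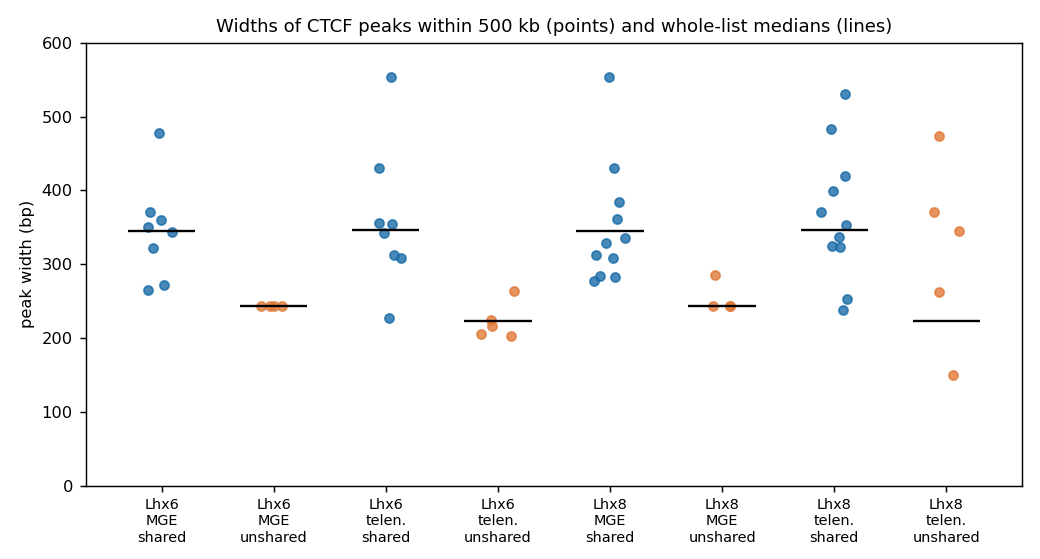
Width in bp of every CTCF peak within 500 kb of Lhx6 and Lhx8, separated by list and by overlap with the other list; each point is a peak and each line is the median of that class in the whole list. Unshared MGE peaks near Lhx6 all sit at 244 bp, and 3 unshared telencephalon peaks near Lhx8 lie at 345 bp or more.

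Within the LIM homeobox family, Lhx6 was among the members far from a peak and Lhx8 among those holding one. Of 12 family genes, 8 had an MGE peak inside or at most 20 kb away (66.7%, exact 95% interval 34.9 to 90.1%) and 10 had a telencephalon peak there (83.3%, 51.6 to 97.9%). Over all protein-coding genes these shares were 63.3% and 71.1%, both within the intervals. The median distance to the nearest peak was 7157.5 bp for the family in MGE and 900.5 bp in telencephalon, against 9086 and 3423 bp for all protein-coding genes.

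Lhx5, Lhx8 and Lhx9 were the 3 of 12 family members with a shared peak in the gene, against 24.3% of all protein-coding genes. Lmx1a, a factor of midbrain dopaminergic neurons, had peaks in the gene in both lists, none of them shared. No peak lay within 20 kb of Lhx6, Lhx1, Lhx4 or Isl2 in the MGE list, with distances of 73423, 88091, 79558 and 109018 bp. In the telencephalon list Lhx1, Lhx4 and Isl2 had peaks at 13237, 0 and 1801 bp, and the genes without a peak within 20 kb were Lhx6 and Isl1, a factor of motor and striatal neurons, at 36516 and 402601 bp. Lhx6 was thus the member that lacked a peak within 20 kb in both lists, as did 22.8% of all protein-coding genes.

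Cofactor genes of the family were set beside the same background. Of Ldb1, Ldb2 and Lmo1 to Lmo4, 5 of 6 had an MGE peak inside or at most 20 kb away (83.3%, interval 35.9 to 99.6%), and 6 of 6 had a telencephalon peak there (54.1 to 100%). The shares over all protein-coding genes, 63.3% in MGE and 71.1% in telencephalon, lie within these intervals. Ldb1, which bridges LIM homeobox proteins, had its nearest peak 7893 bp away in MGE and a peak inside the gene in telencephalon. Lmo4, encoding a LIM-domain-only protein, had the longest distances of the cofactors, 26651 bp in MGE and 2308 bp in telencephalon. Lmo1 and Lmo3, 2 of 6 cofactor genes, held a shared peak in the gene, against 24.3% of all protein-coding genes.

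**Figure D4:**
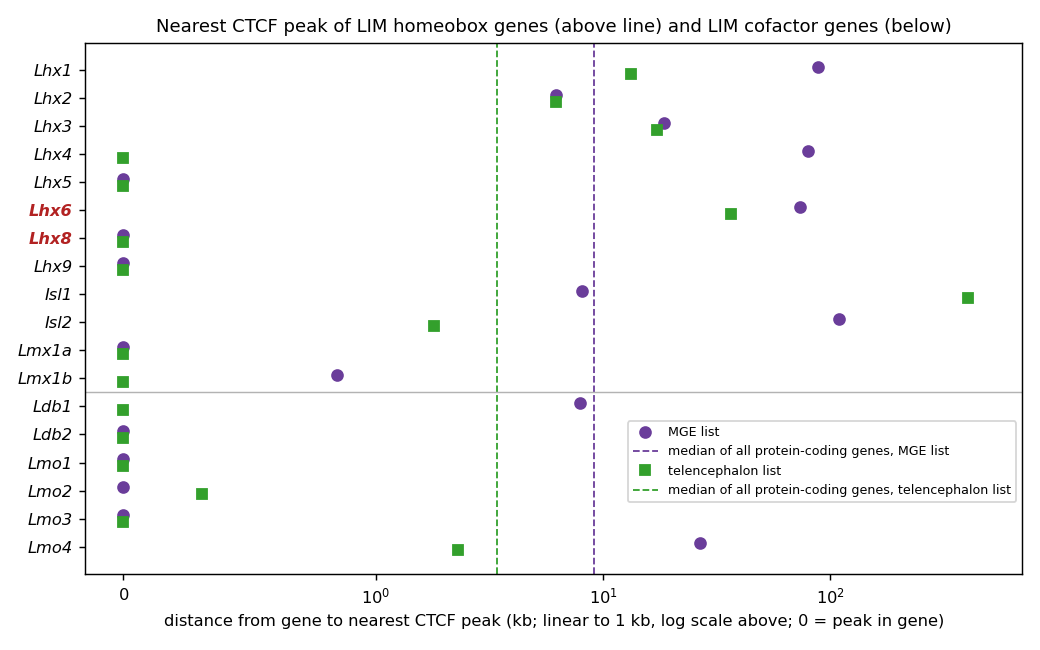
Distance in kb from each LIM homeobox gene (above the grey line) and LIM cofactor gene (below it) to its nearest CTCF peak in the MGE list (circles) and the telencephalon list (squares), on an axis that is linear to 1 kb and logarithmic above; dashed lines are the medians of 21887 protein-coding genes. Lhx6 lies to the right of both medians and Lhx8 at 0 in both lists.

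Genes on other chromosomes that resembled Lhx6 were sought among 7279 protein-coding genes within 2-fold of its length, by the sum over the 2 lists of absolute differences in log10 of the distance to the nearest peak plus 1 bp. The closest were Ska2, at 71643 bp in MGE and 35607 bp in telencephalon, Fmr1nb, at 71856 and 35342 bp, and Txndc5, at 69139 and 36604 bp. Their sums were 0.0216, 0.0236 and 0.0272. For Lhx8, 1965 of 7456 genes tied at a distance of 0 in both lists, so none is named. With 2 lists this measure compares only a pair of distances per gene.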

How the data were processed

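CTCF ChIP-seq was done in 1 MGE and 1 telencephalon library at embryonic day 13.5. Per the submitters' processing notes, reads were handled with Bowtie2 2.3.2 and MACS2 2.1.1.20160309 on mm10. Threshold, control and filters of the peak calling: not given in the sources used here. Names in the file headers differ (p001 for telencephalon, p01 for MGE), and what they stand for is not stated. The authors' deposited lists give a chromosome, start and end per peak, with no score or read count, so sequencing depth is unknown. Chromosomes 1 to 19, X and Y were kept (85 MGE and 93 telencephalon peaks were set aside), in 1-based coordinates. The gene and promoter tables were RefSeq GRCm38.p6. No genome sequence was used here. Distances are bases between a gene and a peak, and 0 when they overlap. Overlap and distance functions were tested on simulated peaks. Python 3.11.15, pandas 2.3.3, numpy 2.4.6 and scipy 1.17.1 were used. Alternatives were wider peaks, equal list lengths, a 250 kb window, midpoints, and other definitions of sharing. The named genes were the members, genes between them and their nearest peaks or nearest to a peak, the LIM homeobox and cofactor lists, and the genes closest to a member in distances. Members and lists were chosen with earlier results of these data known.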

Additional observations from a re-analysis of the deposited data

How the results depend on the processing

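Keeping only peaks at least as wide as their list's median (300 bp in MGE, 276 bp in telencephalon) left 6 MGE and 7 telencephalon peaks within 500 kb of Lhx6 and 8 MGE peaks within 500 kb of Lhx8. It moved the nearest telencephalon peak to 73268 bp from Lhx6 and to 36229 bp from Lhx8, since the nearer peaks were 216 and 238 bp wide. A window of 250 kb held 7 MGE peaks around Lhx6, and 6 MGE and 5 telencephalon peaks around Lhx8. In that window the shared shares were 83.3% in MGE and 100% in telencephalon around Lhx8, and 85.7% and 54.5% around Lhx6. With wider peaks only, and sharing counted among them, the shares were 75% in MGE and 50% in telencephalon near Lhx8. Near Lhx6 they were 83.3% and 71.4%. Cutting the telencephalon list to its widest 25625 peaks, placing peaks by midpoints, requiring an overlap of 50% of both peaks or accepting partners within 1 kb moved no count by over 1.5 times, no distance by a peak's width and no shared share outside its interval. No paired analysis was possible because each tissue has 1 CTCF library. A peak missing from a list may lie below its calling limit, and a peak is not shown to be a bound site without a replicate. Tissue and kit cannot be told apart, and depth and calling threshold are unknown.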

Other observations

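Isl1, a LIM homeobox gene outside the pair described, had many more peaks in the MGE list than in the telencephalon list. Within 500 kb of it the MGE list had 13 peaks and the telencephalon list had 2. The medians over protein-coding genes were 13 and 19. A single site was common to both lists, while 58.4% of all MGE peaks and 47.0% of all telencephalon peaks were shared. Of the 13 MGE peaks, 5 were 244 bp wide, the narrowest width in that list, which 28.9% of all its peaks had. How many other genes differ as much between the lists was not counted. Isl1 was 8088 bp from its nearest MGE peak and 402601 bp from its nearest telencephalon peak, and in the telencephalon list the stretch without peaks around the gene was 986429 bp long. Isl1 was singled out after its values were seen, and the difference was not tested.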
